A study of Homo sapiens with 40 samples.

Results

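The replication-dependent histone genes were taken by symbol: H1-1 to H1-6 for the linker histone H1, and every H2AC, H2BC, H3C and H4C gene for the core histones. All 3 deposited count tables held 69 such genes among 62754, namely 6 of H1, 17 of H2A, 18 of H2B, 13 of H3 and 15 of H4. By position, 55 lie on chromosome 6p, 13 on chromosome 1q and 1, H4C16, on chromosome 12p. The 40 RNA-seq libraries are labelled as human T-cell acute lymphoblastic leukaemia (T-ALL) lines and form 10 groups of 4. Jurkat cells were electroporated with QKI siRNA or NTC control siRNA, and their RNA is labelled total RNA. The control columns of that table are headed as shNTC, whereas the labels name NTC siRNA as the only Jurkat control, and they were taken as that group. Cells labelled HPB-ALL were transduced with virus carrying QKI shRNA or NTC shRNA, and their libraries were made with a stranded mRNA kit. Untreated cells of 6 lines were also sequenced, from RNA labelled polyadenylated. These were KARPAS-45, TALL-1, DND-41, ALL-SIL, HPB-ALL and LOUCY. For LOUCY 2 columns carry the number 1 and none the number 2, so both were used as LOUCY libraries without a number. HPB-ALL and KARPAS-45 were grown in 20% serum and the other lines in 10%. QKI, the depleted gene, encodes a regulator of RNA splicing. The labels do not say whether a line was cloned or whether replicates were separate cultures of different days, so each p-value measures the spread between these libraries.

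Replication-dependent histone genes supply the bulk of histone protein while DNA is copied. Their messenger RNAs are the known exception among animal messages in that they usually carry no poly(A) tail. A stem-loop near the 3′ end is bound by SLBP, and the U7 small nuclear ribonucleoprotein guides the cut just after it. Some of these genes can also give longer, polyadenylated transcripts that read past the stem-loop, which have been described in cells that have left the cycle. Libraries made from polyadenylated RNA catch the second kind and largely miss the first.

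The stem-loop carries the 3′-end signal, so its sequence is shown for members that stood out in polyadenylated RNA. GENCODE 29 has transcript models for 65 of the 69 members, and 29 of the 65 hold the stem-loop. In the sites below, 30 bases of each transcript are written as DNA, with the 16-base stem-loop in capitals.
H2AC6: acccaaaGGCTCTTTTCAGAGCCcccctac
H2BC5: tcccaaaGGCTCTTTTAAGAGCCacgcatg
H2BC21: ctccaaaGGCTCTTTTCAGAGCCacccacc
H4C8: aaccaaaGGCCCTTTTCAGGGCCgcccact
H3C10: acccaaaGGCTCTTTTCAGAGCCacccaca
H3C6: atccaaaGGCTCTTCTCAGAGCCaaccact
H2AC25: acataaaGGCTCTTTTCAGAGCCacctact
H2BC26: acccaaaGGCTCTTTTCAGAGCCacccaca
H2AC6, H2BC21, H3C10, H2AC25 and H2BC26 share 1 stem-loop, found in 15 members, whereas H4C8 has the form of 5 H4 genes and H3C6 has a form found in no other member. Several of these models run far past the stem-loop, by 1128 bases in H2AC6, 1729 in H2BC21, 1655 in H4C8, 769 in H3C10, 1862 in H3C6 and 1917 in H2BC26. In another 30 members the model is coding sequence only and ends before any stem-loop could appear.

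Total counts per library, given in megacounts (M), were 68.4 to 115.7 M for Jurkat QKI siRNA and 103.8 to 134.2 M for Jurkat NTC siRNA. They were 119.8 to 134.9 M for labelled HPB-ALL QKI shRNA, 81.0 to 127.1 M for labelled HPB-ALL NTC shRNA, and 44.1 to 84.0 M for the untreated lines. Levels below are CPM, counts scaled to a common library total by TMM (trimmed mean of M values) within each table. QKI was at 21.5 ± 4.2 CPM with QKI siRNA, against 148 ± 19.5 CPM with NTC siRNA in Jurkat (SD, n = 4 each). It was at 55.7 ± 1.4 CPM with QKI shRNA, against 104.0 ± 2.6 CPM with NTC shRNA in the libraries labelled HPB-ALL. Those libraries went against their label: 9 T-cell markers summed to 0.345 to 0.532 CPM over both groups, whereas the other 32 libraries held 1987 CPM or more. Their 7 myeloid markers summed to 2955 to 3085 CPM with QKI shRNA and 3388 to 3548 CPM with NTC shRNA. The name on the label is therefore kept only as a label, and what these cells are was not tested. In the untreated lines QKI was at 0 counts in LOUCY, at 6.70 ± 0.78 CPM in KARPAS-45 and between 88.0 and 162 CPM on average in the other 4.

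Histone messages made up 1.65% to 5.60% of all counts in the 8 total RNA libraries and 0.00340% to 0.0217% in the 32 polyadenylated ones. These are different cells as well as different RNA, so the RNA type and the cell line cannot be told apart. A set of 17 other RNAs that carry no tail, among them RN7SL1 and RMRP, summed to 616 to 1776 CPM in the Jurkat libraries and to 3.38 to 61.5 CPM in the others. In Jurkat, 57 of the 69 members averaged at least 1 CPM and 45 at least 100 CPM. In polyadenylated RNA, 32 reached an average of 1 CPM in at least 1 of 8 groups. All 32 did so in an untreated line, and 10 also did in the libraries labelled HPB-ALL. No member had 0 counts in all 40 libraries, and 4 had none in the 32 polyadenylated libraries. Among these 4 are H3C14 and H3C15, whose GENCODE 29 models have the same length, 1656 bases, and each overlap an H4 gene. How reads shared between members were counted is not given in the labels. Presence here therefore means counts assigned to a member, and a low count need not mean a low level.

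Class by class, 14 of 18 H2B genes were present in polyadenylated RNA at 1 CPM or more. The counts were 7 of 17 for H2A, 5 of 13 for H3, 4 of 15 for H4 and 2 of 6 for H1. The same 5 members, H1-2, H2AC6, H2BC5, H3C10 and H4C8, reached 1 CPM in all 6 untreated lines and in both groups labelled HPB-ALL, 1 from each class. Divided by coding length, the mean level over the 6 lines was highest for H2AC6, a core H2A gene, at 61.9 CPM per kb. That rank rests on KARPAS-45, where H2AC6 stood at 183.9 CPM per kb. H2AC6 was highest there and in DND-41, whereas H2BC12 was highest in LOUCY and HPB-ALL, H2BC21 in TALL-1 and H2AC25 in ALL-SIL. In the mean over lines H2BC21 followed at 39.7 CPM per kb, H2BC12 at 35.5, H1-2 at 25.6, H2BC5 at 24.9 and H4C8 at 13.4. This order holds for coding length only. The exons of the GENCODE 29 models span 1668 bases in H2AC6 and 2194 in H2BC21, against 381 in H2BC12 and 642 in H1-2. Levels by exon length, which could rank these members otherwise, were not computed. H2AC18, H2AC19, H3C2 and H3C3 have no GENCODE 29 model and so no value per kb. Among the other members the order in Jurkat total RNA was another one: H2AC13 was highest at 4434 CPM per kb, then H2AC11 at 3527, H1-5 at 3136, H1-2 at 3110 and H2AC6 at 3071.

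**Figure D1:**
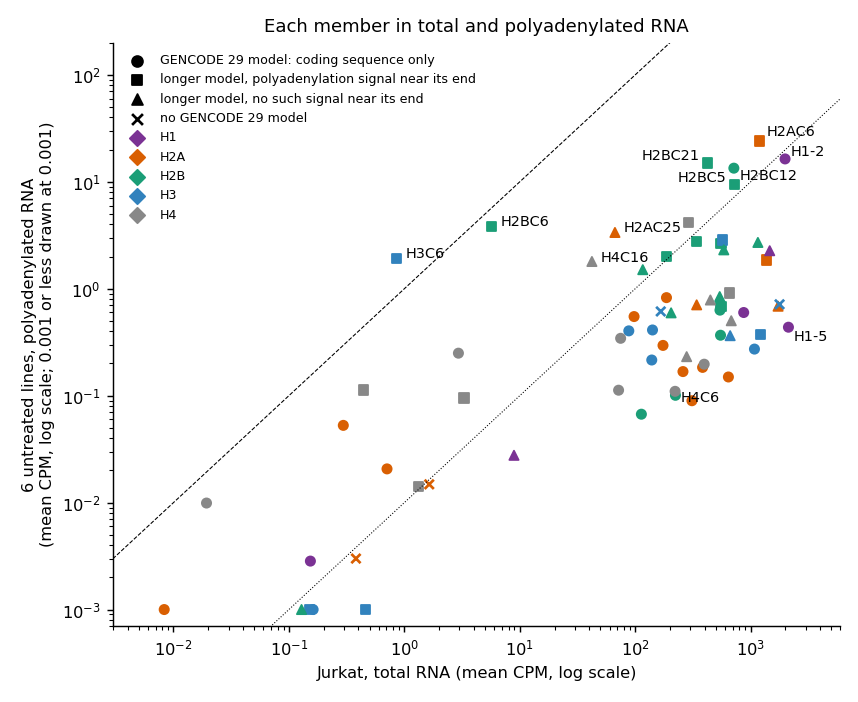
Each point is 1 member, with its mean over the 8 Jurkat total RNA libraries on the x axis and the mean of the 6 untreated lines, polyadenylated RNA, on the y axis (both CPM on log scales; values of 0.001 or less are drawn at 0.001). Marker shape gives the kind of GENCODE 29 model and colour the histone class; the dashed line marks equal levels and the dotted line 1% of the Jurkat level. H3C6 and H2BC6 lie closest to or above equality, and most members lie below 1%.

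Among the 57 members at 1 CPM or more in Jurkat, the median level in the untreated lines was 0.207% of the Jurkat level. H1-5, a linker histone gene among the strongest in Jurkat, averaged 0.437 CPM in the lines and 2126 CPM in Jurkat, or 0.0205%. H2AC14 stood at 0.0233% and H3C7 at 0.0253%. At the other end H2BC6 averaged 3.83 CPM in the lines and 5.66 CPM in Jurkat, or 67.7%. H3C6 was the only member with a higher mean in the lines, 1.93 CPM, than in Jurkat, 0.857 CPM. Both means cover a wide spread. H3C6 reached 1 CPM in 2 lines, with DND-41 highest at 6.10 CPM. In Jurkat it had 15, 16, 149 and 133 counts in QKI siRNA libraries 1 to 4, and 16, 18, 327 and 72 in NTC siRNA libraries 1 to 4. Among the 57, H4C12 came next after H2BC6, at 8.49%, with 0.250 CPM in the lines and 2.94 CPM in Jurkat. H2AC25 and H4C16 stood at 5.03% and 4.26%, and H2BC21 at 3.53%. The value of H2AC25 rests on ALL-SIL, at 20.1 CPM, the only line where it reached 1 CPM. H2BC21 ranged from 0.0049 CPM in DND-41 to 47.0 CPM in TALL-1. H2BC6 shares bases with another annotated gene, and how overlapping reads were counted is not given in the labels.

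The members that appear in polyadenylated RNA differed in their GENCODE 29 models. Of 19 members with a longer model and the letters AATAAA within 40 bases of its end, 13 reached 1 CPM in a polyadenylated group. Of 16 with a longer model and no AATAAA there, 11 did, and of 30 with a coding-sequence model, 6 did. The median level over the 6 lines was 1.93 CPM in the first set, 0.746 CPM in the second and 0.206 CPM in the third, whereas their median Jurkat levels were 338, 394 and 180 CPM. The annotation that the authors counted on is not given, and a longer model can collect more reads, so the part of model length in these levels was not tested. H2BC12 and H1-2, among the 5 highest per kb, have coding-sequence models in GENCODE 29.

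In Jurkat the question was whether depleting QKI altered histone messages in total RNA. No member passed the test. Of the 69 members 67 were tested, and edgeR's quasi-likelihood test called 0 of them at an adjusted p under 0.05, against 0.0047% of 21296 genes. Of the 67, 3 had an unadjusted p under 0.05, beside 186 of all 21296 genes, and DESeq2 and limma-voom also called 0 members. The log2 fold change of QKI siRNA over NTC siRNA was positive for 59 members with a median of 0.20, beside a median of 0.00 over all genes. For 0 members did the QKI siRNA libraries all lie beyond the NTC siRNA libraries, against 0.39% of all genes higher and 0.676% lower. Of all genes, the test called 0% higher and 0.0047% lower.

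The histone sum varied widely between libraries of 1 group. It was 24674, 56316, 24143 and 24434 CPM in QKI siRNA libraries 1 to 4, against 22266, 38978, 30571 and 16808 CPM in NTC siRNA libraries 1 to 4. Library 2 was the highest in both groups, and QKI siRNA library 2 was also the shallowest, at 68.4 M counts. Of the 57 members at 1 CPM or more, 50 were highest in QKI siRNA library 2 and 51 were lowest in NTC siRNA library 4. The same shares over all genes were not computed, so these counts are not read as particular to the members. Libraries of the same number deviated together (correlation of their deviations over genes 0.733 to 0.877), so QKI siRNA was also compared with NTC siRNA within a number. Between libraries of different numbers that correlation ran from -0.782 to 0.718, so some different numbers also deviated together. The median log2 ratio over the 67 members was 0.10 in number 1, 0.47 in number 2, -0.39 in number 3 and 0.55 in number 4. In number 3, 64 of the 67 were lower with QKI siRNA. With the number as a block, edgeR called 0 members and 12 of 67 had an unadjusted p under 0.05, beside 9 called and 1416 under 0.05 of all 21296 genes. Without QKI siRNA library 2, which leaves its number without a partner, the median was -0.12 and 17 of the 67 were positive. Without both libraries of number 2 the median was 0.06 and 47 of 66 were positive.

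**Figure D2:**
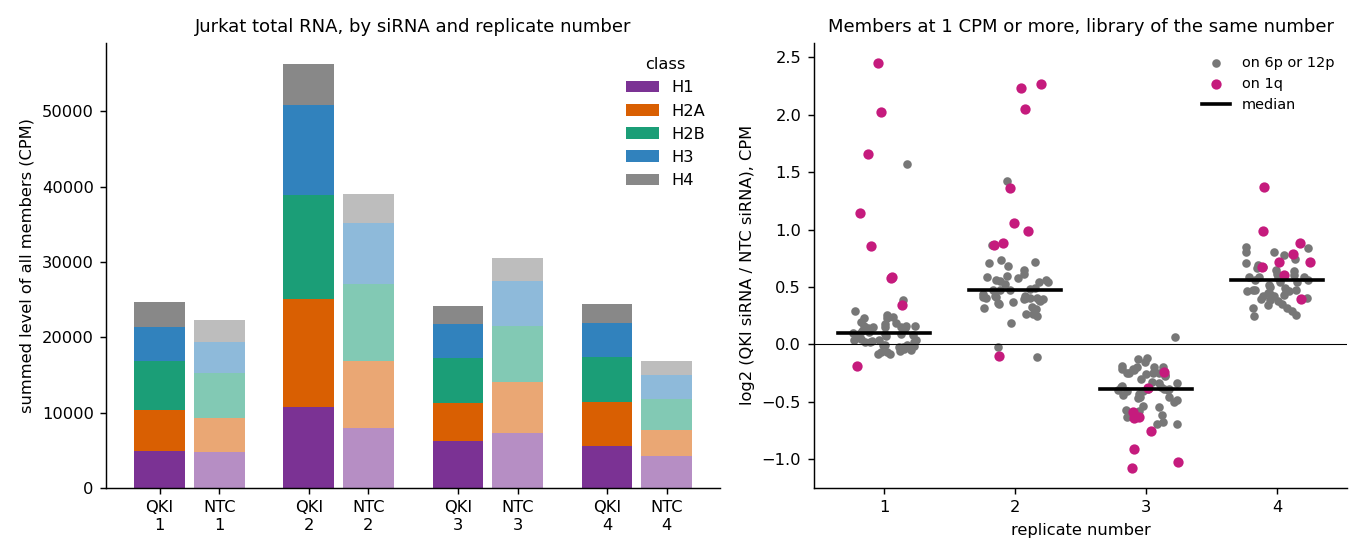
Left, the summed level of all members in each Jurkat library (CPM), stacked by histone class, with the QKI siRNA library beside the NTC siRNA library (paler) of the same replicate number. Right, the log2 ratio of QKI siRNA over NTC siRNA within each number for members at 1 CPM or more; pink points are members on 1q, grey points those on 6p and 12p, and bars are medians. The histone sum is highest in number 2 for both siRNAs, and the ratios in number 3 lie below 0 for all members drawn but H4C12.

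H1-2, a main somatic linker histone, had 1455, 4027, 1567 and 1366 CPM with QKI siRNA, against 1462, 3084, 1864 and 1075 CPM with NTC siRNA. The groups overlapped, and the log2 fold change was 0.17 ± 0.40 (SE). H1-5 averaged 2271 ± 664 CPM with QKI siRNA and 1981 ± 677 CPM with NTC siRNA (SD, n = 4 each). H1-4, also a linker histone, averaged 1565 ± 578 CPM with QKI siRNA and 1361 ± 396 CPM with NTC siRNA. H2AC13 averaged 1931 ± 1279 CPM with QKI siRNA and 1528 ± 738 CPM with NTC siRNA. H2AC11 averaged 1549 ± 829 CPM with QKI siRNA and 1202 ± 452 CPM with NTC siRNA. H3C2, a core H3 gene, averaged 1889 ± 1018 CPM with QKI siRNA and 1673 ± 688 CPM with NTC siRNA. All of these differences were smaller than the spread within a group.

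The largest change among the members was that of H2AC25, an H2A gene of the distal 1q pair, which the test did not call. H2AC25 had 134, 192, 28.8 and 43.0 CPM with QKI siRNA, against 24.4, 40.7, 48.7 and 23.3 CPM with NTC siRNA. Libraries 1 and 2 of the QKI siRNA group were above every control, and libraries 3 and 4 lay within the control range or near it. Its log2 fold change was 1.53 ± 0.53, with an adjusted p of 1.0 by edgeR's quasi-likelihood test. Chosen after their values were seen, and with the share over all genes not computed, 8 other members also had QKI siRNA libraries 1 and 2 above all other libraries. They were H2AC20, H2AC21, H2BC26 and H3C13 on 1q and H3C11, H4C4, H4C5 and H4C8 on 6p. H2AC20 had 318, 554, 84.6 and 115 CPM with QKI siRNA, against 78.3, 115, 159 and 69.7 CPM with NTC siRNA. H3C13 had 205, 359, 85.4 and 112 CPM with QKI siRNA, against 64.8, 86.8, 133 and 68.1 CPM with NTC siRNA. H3C11, on 6p, had 207, 387, 71.2 and 84.0 CPM with QKI siRNA, against 69.7, 144, 109 and 57.8 CPM with NTC siRNA.

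By position, the 11 tested members of the proximal 1q group had a median log2 fold change of 0.40 and the 53 on 6p one of 0.19. The 2 of the distal 1q pair, H2AC25 and H2BC26, had 1.53 and 0.52. Leaving out both libraries of number 3 and keeping the block, an alternative chosen after the data were seen, edgeR called 8 of 65 members, all higher with QKI siRNA, beside 20 of all 21661 genes, 12 of them higher. They were H2AC25, H2AC20, H3C13, H2AC21, H2BC18 and H2BC26 on 1q and H3C11 and H2AC16 on 6p. Leaving out number 1, 2 or 4 with the block gave 0 called members, and leaving out number 3 without the block also gave 0.

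In the libraries labelled HPB-ALL, 10 members rose with QKI shRNA and 0 fell. They were H1-2 and H1-4 of the linker class, H2AC6, the H2B genes H2BC4, H2BC5, H2BC11, H2BC12 and H2BC17, H3C10, and H4C8. Only 26 of the 69 members had enough counts to be tested, so the 10 are 10 of 26. Over all 17974 tested genes 23.2% were called, 12.8% higher and 10.4% lower (edgeR quasi-likelihood test, adjusted p under 0.05). Of the 26 members, 22 had a positive log2 fold change; the median was 0.35, beside -0.01 over all genes. The QKI shRNA libraries all lay above the NTC shRNA libraries for 9 members, against 14.5% of all genes, and below them for 0, against 11.7%. The histone sum was 67.8, 64.4, 67.1 and 65.6 CPM with QKI shRNA, against 55.7, 53.2, 50.9 and 51.5 CPM with NTC shRNA, with no overlap.

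H2AC6 had 11.4, 11.2, 11.5 and 12.1 CPM with QKI shRNA, against 8.66, 8.27, 8.17 and 7.91 CPM with NTC shRNA. The groups were well apart, with a log2 fold change of 0.49 ± 0.05 (SE) and an adjusted p of 5.4e-05 by edgeR. H1-2 had 6.78, 6.88, 6.90 and 6.79 CPM with QKI shRNA, against 4.82, 4.82, 3.36 and 4.67 CPM with NTC shRNA. NTC shRNA library 3 was the lowest, and the log2 fold change was 0.63 ± 0.10 with an adjusted p of 8.5e-04 by edgeR.

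H2BC12 had 11.7, 9.41, 12.6 and 11.4 CPM with QKI shRNA, against 9.03, 7.75, 7.93 and 8.28 CPM with NTC shRNA. The lowest QKI shRNA library was still above the highest NTC shRNA library, and the log2 fold change was 0.45 ± 0.08. H2BC5 had 2.61, 2.29, 2.56 and 2.69 CPM with QKI shRNA, against 1.34, 1.53, 1.87 and 1.74 CPM with NTC shRNA. Its log2 fold change was 0.66 ± 0.10. H2BC11 showed the largest rise, with 0.949 ± 0.085 CPM with QKI shRNA and 0.581 ± 0.065 CPM with NTC shRNA (SD, n = 4 each) and a log2 fold change of 0.70 ± 0.12.

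H3C10 averaged 2.66 ± 0.12 CPM with QKI shRNA and 2.10 ± 0.13 CPM with NTC shRNA, and H4C8 ranged over 1.37 to 1.76 CPM with QKI shRNA and 1.01 to 1.14 CPM with NTC shRNA, with no overlap. They were the only H3 and H4 genes at 1 CPM in these libraries. H2BC4 averaged 0.968 ± 0.080 CPM with QKI shRNA and 0.739 ± 0.041 CPM with NTC shRNA. H1-4 ranged over 0.880 to 1.49 CPM with QKI shRNA and 0.655 to 1.07 CPM with NTC shRNA, and its groups overlapped. H2BC17 averaged 0.582 ± 0.079 CPM with QKI shRNA and 0.388 ± 0.101 CPM with NTC shRNA, also with overlap. These last 3 were called narrowly: the adjusted p was 0.020 for H2BC4, 0.043 for H1-4 and 0.045 for H2BC17 by edgeR. Over the alternatives tried, the highest adjusted p was 0.058 for H2BC4, 0.119 for H1-4 and 0.112 for H2BC17. With the replicate number as a block, edgeR called 8 members, beside 3063 of 17974 genes, and H2BC4 (adjusted p = 0.054) and H1-4 (adjusted p = 0.110) were not among them.

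**Figure D3:**
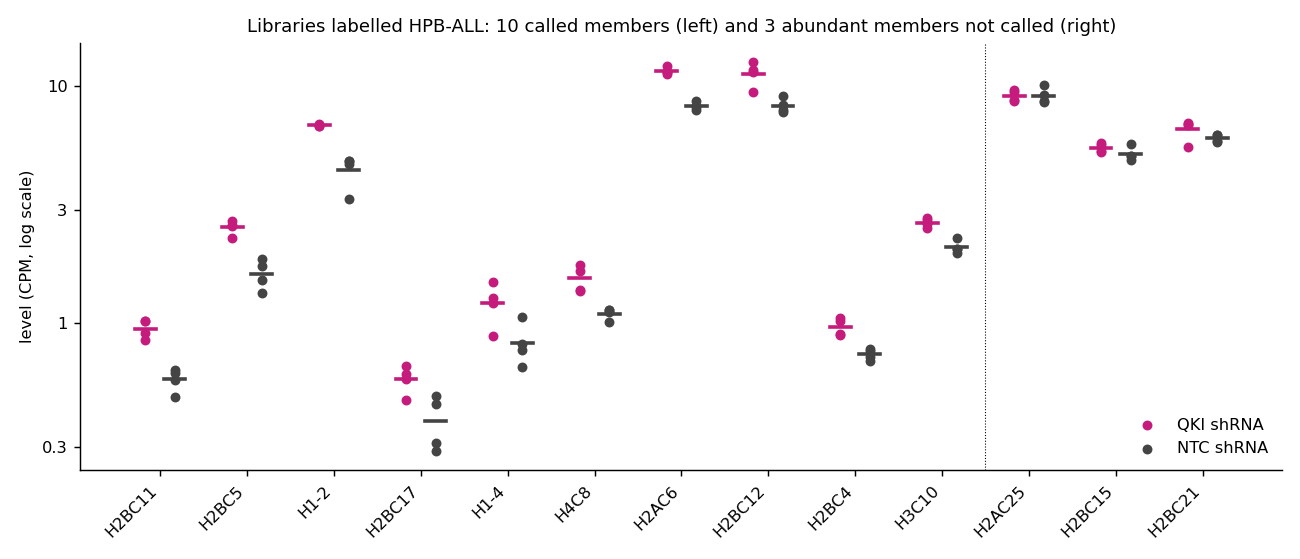
Levels (CPM, log scale) in the 4 QKI shRNA libraries (pink, left) and the 4 NTC shRNA libraries (grey, right) labelled HPB-ALL; bars are means. The 10 members left of the dotted line were called, and the 3 right of it, H2AC25, H2BC15 and H2BC21, were as abundant but not called.

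Other members as abundant were not called. H2AC25 had 9.44, 9.60, 8.71 and 8.65 CPM with QKI shRNA, against 10.1, 9.19, 8.52 and 8.62 CPM with NTC shRNA. The groups overlapped throughout, with a log2 fold change of -0.00 ± 0.06. H2BC15 averaged 5.49 ± 0.24 CPM with QKI shRNA and 5.17 ± 0.35 CPM with NTC shRNA, though its model overlaps the H2A genes H2AC15 and H2AC16 and its counts are uncertain. H2BC21 averaged 6.55 ± 0.70 CPM with QKI shRNA and 6.02 ± 0.22 CPM with NTC shRNA, and was called only when QKI shRNA library 4 was left out (adjusted p = 0.031 by edgeR). The largest change that was not called was that of H3C13, with 0.138 ± 0.030 CPM with QKI shRNA and 0.084 ± 0.041 CPM with NTC shRNA. The tested members on 1q, namely H2AC20, H2AC25, H2BC18, H2BC21, H2BC26, H3C13 and H4C14, were all outside the 10 called.

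Of 34 genes of histone RNA processing, 33 were tested in each knockdown. In the libraries labelled HPB-ALL 4 rose with QKI shRNA and 0 fell, a share near the 12.8% of all genes called higher, and in Jurkat 0 were called. The 4 were ZNF473, a U7 particle protein (log2 fold change 0.27 ± 0.04), UPF1, a helicase that acts in histone RNA decay (0.33 ± 0.06), CDK9, a transcription elongation kinase (0.15 ± 0.04), and NCBP3, a cap-binding protein (0.15 ± 0.04). Among the variant histone genes, H2AX rose with QKI shRNA (0.25 ± 0.04), and in Jurkat edgeR did not call it. Of 33 DNA replication genes 15 rose with QKI shRNA and 0 fell, beside 12.8% and 10.4% of all genes, with a median log2 fold change of 0.12. Among them were E2F2 (0.61 ± 0.05), CDT1 (0.44 ± 0.04), RRM2 (0.41 ± 0.04) and CCNE2 (0.39 ± 0.05). Their summed level was 3427 to 3490 CPM with QKI shRNA and 3154 to 3451 CPM with NTC shRNA. Of the 7 myeloid markers 5 fell, beside 10.4% of all genes. The part of the replication genes and of the myeloid markers in the histone result was not tested. In Jurkat 0 of the 33 replication genes were called, with summed levels of 4326 to 5783 CPM with QKI siRNA and 4055 to 5061 CPM with NTC siRNA.

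Across the 6 untreated lines, members of the same family were high in one line and at or near 0 in another. Of 53 tested members, 52 differed between lines in edgeR's F test, beside 98% of 20348 genes, so the share of members is near that of all genes. The histone sum was highest in KARPAS-45 at 248 ± 16 CPM, followed by TALL-1 at 161 ± 24, DND-41 at 133 ± 11, ALL-SIL at 87.9 ± 37.1, HPB-ALL at 85.2 ± 5.1 and LOUCY at 62.7 ± 16.4 CPM (SD, n = 4 each). That order rests on few members: without the 3 most abundant the means were 98.8 CPM in DND-41, 86.1 CPM in TALL-1 and 85.8 CPM in KARPAS-45. With all members the KARPAS-45 libraries, at 225 to 260 CPM, lay above all others, TALL-1 and DND-41 overlapped, and ALL-SIL, at 35.9 to 117 CPM, lay below DND-41 and overlapped HPB-ALL and LOUCY. The 33 DNA replication genes summed to 11962 to 12636 CPM in KARPAS-45 and 4016 to 7200 CPM in the other 5 lines, and their part in the histone levels was not tested.

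**Figure D4:**
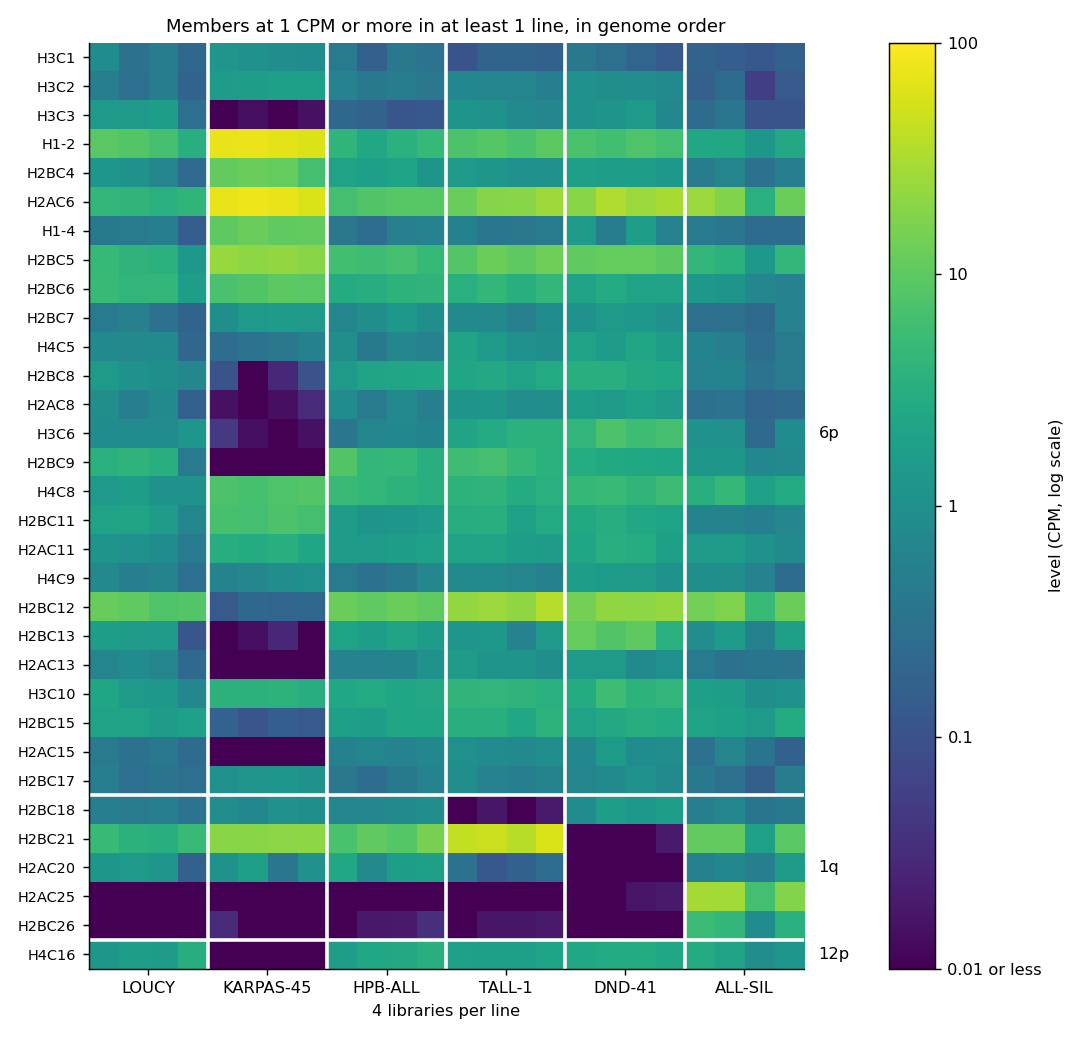
Level of each of the 32 members that averaged 1 CPM or more in at least 1 untreated line (rows, in genome order within 6p, 1q and 12p) in the 4 libraries of each line (columns), with colour giving CPM on a log scale from 0.01 or less to 100. Dark cells mark members under 0.1 CPM on average in a line: 11 members in KARPAS-45, H2BC21 and H2AC20 in DND-41, H2BC18 in TALL-1, and H2AC25 and H2BC26 in every line but ALL-SIL.

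In KARPAS-45, set against the mean of the other 5 lines, 21 of 53 tested members were higher and 25 lower. Of all genes 39% were higher and 34.2% lower (73.2% in either direction), so the share of higher members is near that of all genes. H1-2 had 73.1, 75.5, 69.4 and 61.9 CPM in KARPAS-45, against line averages of 2.23 to 8.37 CPM in the others. All 4 libraries stood far above every other library, with a log2 fold change of 3.79 ± 0.15. H1-4 had 10.0, 12.3, 10.7 and 10.8 CPM in KARPAS-45, against averages of 0.330 to 1.05 CPM in the others. H2BC4 averaged 10.3 ± 2.5 CPM in KARPAS-45, against averages of 0.492 to 1.78 CPM in the others, and its neighbour H2AC6 averaged 71.7 CPM in KARPAS-45, against at most 27.2 CPM elsewhere.

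In the same 4 libraries other members were at or near 0. KARPAS-45 held 0 counts of H2BC9, H2AC13, H2AC15 and H4C16. H2BC9 averaged 1.05 to 5.15 CPM in the other 5 lines, so it was at least 72.6-fold lower in KARPAS-45 than their mean, taking 3 counts per library as the floor. H4C16, the gene on 12p, averaged 1.80 to 2.66 CPM in the other lines and was at least 46.9-fold lower by the same floor. H2AC13 averaged 0.364 to 1.23 CPM in the other lines and was at least 17.9-fold lower. H2BC12 was at 0.137 to 0.228 CPM in KARPAS-45, against line averages of 9.69 to 26.4 CPM. In all, 11 of the 32 members that averaged 1 CPM in a line were under 0.1 CPM on average in KARPAS-45. There were 2 in LOUCY, 2 in HPB-ALL, 3 in TALL-1, 4 in DND-41 and 0 in ALL-SIL. H2AC25 and H2BC26 were among the 32 only through ALL-SIL, and they are counted in each of the other 5 lines. They are the 2 in LOUCY and the 2 in HPB-ALL. The share of all genes under the same rule was not computed. For 15 members all KARPAS-45 libraries lay below every other library, and for 11 above, beside 12.3% and 16.4% of all genes.

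Chosen after their values were seen, some members that were high or near 0 in KARPAS-45 are given here by position, since they lay among each other on chromosome 6. H2BC4 and H2AC6, between bases 26114873 and 26139116 of GRCh38, were highest in KARPAS-45. H2BC8, H2AC8 and H3C6, between 26215159 and 26227473, averaged 0.0606, 0.0151 and 0.0188 CPM there. H1-3, the next member along, averaged 0.945 CPM. H2BC9, at 26251651 to 26253710, had no counts, and H4C8, at 26277609 to 26285638, averaged 7.74 CPM, more than in any other line.

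DND-41 had the largest share of higher members: 40 were higher than the mean of the other 5 lines and 4 lower, beside 34.4% and 23.3% of all genes (57.7% in either direction), with a median log2 difference of 1.01. H3C6 had 4.32, 7.72, 5.79 and 6.58 CPM in DND-41, against line averages of 0.019 to 3.08 CPM. H2BC13 had 11.5, 8.23, 10.1 and 3.40 CPM in DND-41, against averages of 0.011 to 1.91 CPM, with library 4 the lowest. H2BC10 averaged 0.967 ± 0.368 CPM in DND-41, against averages of 0 to 0.462 CPM. In DND-41 4 members lay above every other library and 2 below, beside 3.78% and 2.35% of all genes. Those below lay on 1q. H2BC21 had 1 count over the 4 DND-41 libraries, against averages of 4.28 to 47.0 CPM in the other lines. H2AC20 had 0 counts in DND-41, against averages of 0.221 to 1.73 CPM, which is at least 16.4-fold lower than their mean. H2BC14 was also lower in DND-41, at 0.014 CPM or 3 counts in all, against averages of 0.022 to 0.348 CPM, a call lost without DND-41 library 4 (adjusted p = 0.060 by edgeR).

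TALL-1 had 22 members higher and 6 lower than the mean of the others, beside 32.9% and 24.4% of all genes (57.3% in either direction). H2BC21 had 42.3, 48.4, 37.7 and 59.8 CPM in TALL-1, more than any other library of the 6 lines. H2BC9 averaged 5.09 ± 1.28 CPM and H2AC13 1.23 ± 0.24 CPM in TALL-1, and both overlapped other lines. Above every other library lay 1 member and below 2, beside 4.43% and 3.69% of all genes. H2BC18, a 1q neighbour whose model overlaps FCGR1A, had 2 counts over the 4 TALL-1 libraries, against averages of 0.449 to 1.43 CPM. H3C13 also had 2 counts, against averages of 0.184 to 0.422 CPM, and H4C14, a gene with a near-identical copy, H4C15, had 1 count, a call lost without KARPAS-45 library 4 (adjusted p = 1.0 by edgeR).

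ALL-SIL had 10 members higher and 22 lower, beside 33.8% and 25.4% of all genes (59.2% in either direction). H2AC25 had 28.5, 27.8, 6.39 and 17.9 CPM in ALL-SIL, whereas the other 20 libraries averaged at most 0.009 CPM per line. H2BC26, its neighbour, had 5.37, 4.39, 0.876 and 3.48 CPM in ALL-SIL, against line averages of at most 0.019 CPM. H4C14 averaged 0.184 ± 0.145 CPM in ALL-SIL, but its highest line average, 0.330 CPM, was in DND-41. Above every other library lay 2 members and below 3, beside 4.22% and 3.93% of all genes. H1-2, H3C2 and H2AC4 had the largest falls there: H1-2 averaged 2.23 ± 0.60 CPM, against 3.76 to 70.0 CPM in the other lines, H3C2 0.153 ± 0.085 CPM, against 0.365 to 1.72 CPM, and H2AC4 0.019 ± 0.015 CPM, against 0.047 to 0.432 CPM. ALL-SIL library 3 had the lowest histone sum of the 24 libraries, 35.9 CPM, and the highest replication-gene sum outside KARPAS-45, 7200 CPM.

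HPB-ALL had 24 members higher and 5 lower, beside 39.6% and 23.4% of all genes (63% in either direction). LOUCY had 19 higher and 10 lower, beside 37.3% and 28.5% (65.8% in either direction). With the replicate number as a block, a fit that drops the LOUCY libraries without a number, LOUCY had 9 higher and 11 lower of 56 members, beside 6793 and 4894 of 21467 genes. In HPB-ALL 1 member lay above every other library and 0 below, beside 6.63% and 4.47% of all genes, and in LOUCY 0 lay above and 1 below, beside 9.64% and 5.95%. H4C6 averaged 0.497 ± 0.281 CPM in HPB-ALL, against averages of 0 to 0.162 CPM in the others, and H2AC14 0.346 ± 0.139 CPM, against 0 to 0.402 CPM. H2BC9 averaged 5.15 ± 2.17 CPM in HPB-ALL. H1-2, H2AC6 and H1-4 were lower in HPB-ALL than the mean of the other 5, at 3.76 ± 0.97, 8.31 ± 1.18 and 0.452 ± 0.142 CPM. In LOUCY, H2AC14 averaged 0.402 ± 0.244 CPM, H2BC14 0.348 ± 0.189 CPM and H4C6 0.162 ± 0.097 CPM, all higher than the mean of the other 5. H2AC6 averaged 4.04 ± 0.45 CPM, H2BC5 3.44 ± 1.47 CPM and H4C8 1.33 ± 0.28 CPM in LOUCY, all lower. For H4C8 every LOUCY library, at 1.09 to 1.68 CPM, lay below every library of the other lines.

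H1-2, H1-3, H1-4 and H1-5 all had their highest mean in KARPAS-45 and their lowest in ALL-SIL, by very different margins. H1-2 averaged 70.0 CPM in KARPAS-45 and 2.23 CPM in ALL-SIL. H1-3 averaged 0.945 ± 0.166 CPM in KARPAS-45 and 0.909 ± 0.272 CPM in DND-41, a difference within their spread, and 0.168 to 0.590 CPM in the other 4 lines. H1-4 averaged 10.9 CPM in KARPAS-45 and at most 1.05 CPM elsewhere. H1-5, the highest linker message of Jurkat per kb, averaged 0.157 to 0.622 CPM over the lines, and DND-41, at 0.614 CPM, did not differ from KARPAS-45 beyond the spread. H1-1 and H1-6, the second a testis-specific form, averaged at most 0.00832 and 0.0698 CPM over the lines. Jurkat levels of H1-1 averaged 0.115 CPM with QKI siRNA and 0.192 CPM with NTC siRNA. Those of H1-6 were higher, at 8.54 ± 4.87 CPM with QKI siRNA and 9.28 ± 8.45 CPM with NTC siRNA (SD, n = 4 each).

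Many H2A and H2B genes start back to back on opposite strands and share the stretch between them. By GENCODE 29, 12 pairs of members start within 400 bases of each other, all of H2A with H2B but H3C12 with H2BC17. In 9 pairs both partners averaged 0.3 CPM or more in at least 1 line. In 7 of these both were lowest in the same line, and in 5 both were highest in the same line. Within those 7, H2AC25, H2BC26 and H2AC14 were at 0 in more than 1 line, and ties went to the first line listed. How often members that are not partners share a lowest or highest line was not computed. Partners share libraries and the sequence between their starts, so these are descriptions. H2BC8 and H2AC8 were both near 0 in KARPAS-45 and both highest in DND-41. H2BC12 and H2AC12 were both lowest in KARPAS-45, at 0.195 and 0.0592 CPM, while they averaged 9.69 to 26.4 and 0.136 to 0.611 CPM in the other lines. H2BC21 and H2AC20 were both at or near 0 in DND-41 but parted in TALL-1, where H2BC21 was highest at 47.0 CPM and H2AC20 stood at 0.221 CPM, the lowest of the lines that held it. H2AC25 and H2BC26 appeared together in ALL-SIL.

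**Figure D5:**
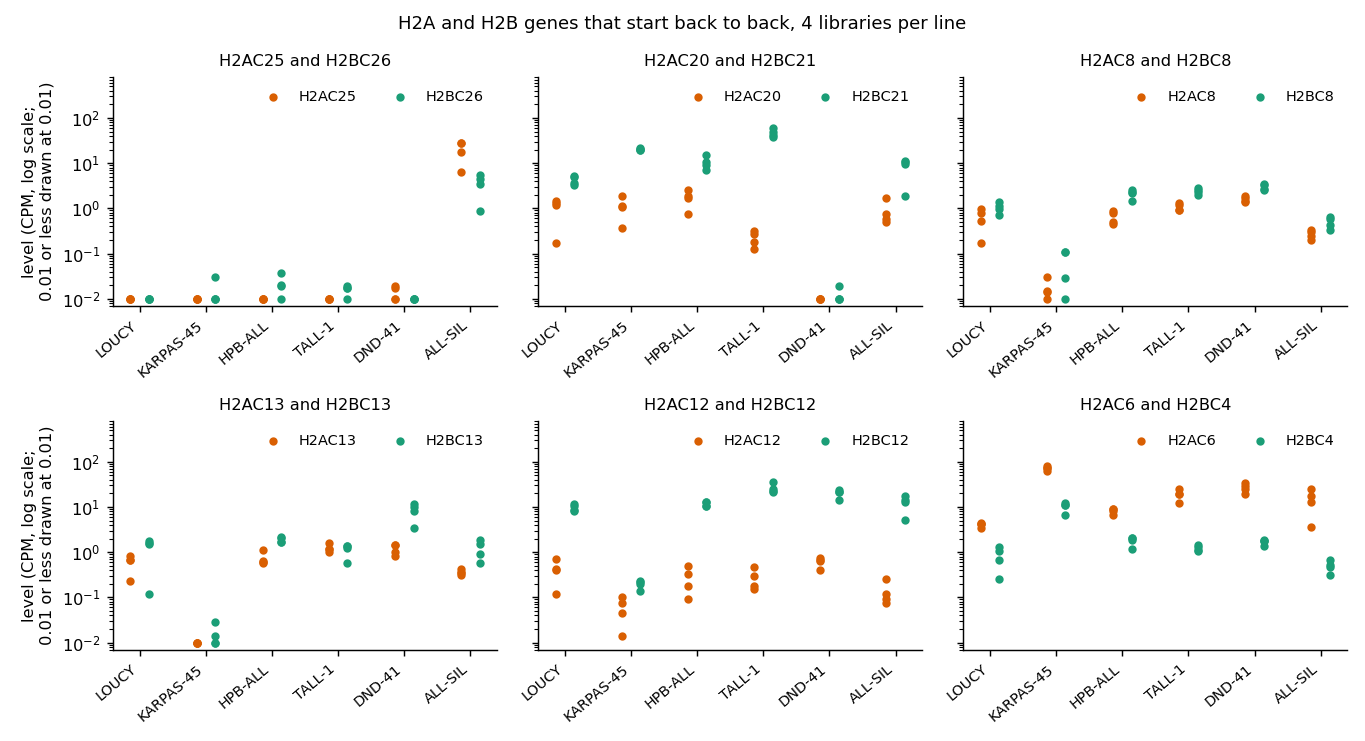
Levels (CPM, log scale, values of 0.01 or less drawn at 0.01) of the H2A partner (orange) and the H2B partner (green) of 6 back-to-back pairs in the 4 libraries of each untreated line. H2AC25 and H2BC26 appear in ALL-SIL, H2AC20 and H2BC21 are at or near 0 in DND-41, and H2AC8, H2AC13 and H2AC12 with their partners are lowest in KARPAS-45.

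The stretches between 3 of these pairs are shown as examples: H2AC25 and H2BC26 appeared together in ALL-SIL, H2AC20 and H2BC21 were near 0 together in DND-41, and H2AC6 and H2BC4 were both highest in KARPAS-45. They are RefSeq promoter windows of 300 bases on GRCh38.p14, 250 before and 50 after the annotated start, each on the plus strand. Capitals mark ATTTGCAT, the octamer typical of H2B promoters, TATAAA and CCAAT, each searched on both strands. The first is the H2BC26 window, chr1:228457853-228458152, which reaches the start of H2AC25. The second is the H2AC20 window, chr1:149886668-149886967, next to the start of H2BC21. The third is the H2AC6 window, chr6:26123922-26124221, which reaches the start of H2BC4.
H2BC26: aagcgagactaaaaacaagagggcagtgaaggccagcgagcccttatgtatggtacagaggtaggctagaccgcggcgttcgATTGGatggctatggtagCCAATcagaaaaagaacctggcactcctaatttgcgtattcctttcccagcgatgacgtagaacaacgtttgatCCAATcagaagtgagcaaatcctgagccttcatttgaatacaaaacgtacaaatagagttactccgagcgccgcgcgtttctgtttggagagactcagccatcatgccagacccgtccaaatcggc
H2AC20: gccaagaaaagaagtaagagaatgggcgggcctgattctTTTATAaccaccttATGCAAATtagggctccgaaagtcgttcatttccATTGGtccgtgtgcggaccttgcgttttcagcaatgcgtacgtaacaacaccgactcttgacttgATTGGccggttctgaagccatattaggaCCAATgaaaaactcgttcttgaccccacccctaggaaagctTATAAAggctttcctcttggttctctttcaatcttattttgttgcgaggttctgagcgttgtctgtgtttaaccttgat
H2AC6: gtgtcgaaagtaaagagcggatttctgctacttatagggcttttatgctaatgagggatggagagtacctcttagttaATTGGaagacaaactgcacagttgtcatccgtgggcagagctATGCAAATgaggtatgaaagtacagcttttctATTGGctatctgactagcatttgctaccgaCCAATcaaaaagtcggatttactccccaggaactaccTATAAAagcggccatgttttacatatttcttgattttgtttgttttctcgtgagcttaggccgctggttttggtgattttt
The H2AC20 and H2AC6 windows hold the octamer, TATAAA and CCAAT, and the H2BC26 window holds CCAAT alone. RefSeq windows were found for 64 members. The octamer was in 14 of 18 H2B and 11 of 16 H2A windows, 1 of 11 H3 windows and 0 of the H1 and H4 windows, against 1.77% of all 35116 windows of that length. TATAAA was in 65.6% of the member windows, against 11.5% of all, and CCAAT in 84.4%, against 34.6%. A match says only that the letters are there.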

How the data were processed

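The authors deposited 3 tables of raw read counts per gene, and no normalized values were used. Reads were handled with Trimmomatic 0.39 and STAR 2.7.11b on GRCh38, per the submitters' processing notes. Not given in the sources used here are the counting tool, annotation and strand setting. Rows that name no gene, 13.0% to 15.1% of the labelled HPB-ALL table, were left out. Each table was normalized by TMM and tested alone with edgeR 4.0.16 (filterByExpr, quasi-likelihood F test, Benjamini-Hochberg adjustment over all genes, 0.05). A line was set against the mean of the other 5. DESeq2 1.42.0 and limma 3.58.1 (voom) served as alternatives, with RLE factors, no filter, library sizes without the members, a replicate block and each library left out. The fit was checked on simulated counts. Libraries of 1 number deviated together in Jurkat (0.733 to 0.877) and not in the labelled HPB-ALL table (-0.206 to 0.036). Replicates differed beyond counting noise in all 60 pairs. Floors of 3 counts cover counting error only. The members and lists were chosen with earlier results of these data known. Named genes were the most abundant members, the largest called changes and the largest uncalled change of each comparison. Members named for their ratio of polyadenylated to total RNA, their position or their pairing were chosen after their values were seen. The full variant histone list is not reported here.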

Additional observations from a re-analysis of the deposited data

Results flagged for a closer look

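In 9 of 100 sets of 4 libraries, 1 library stood apart from the other 3 by Dixon's criterion, which chance gives in about 1 of 20. In Jurkat these were all QKI siRNA library 2, the highest for the histone sum (56316 CPM) and for H1-2 (4027 CPM), H1-4 (2425 CPM), H2AC13 (3842 CPM) and H3C2 (3403 CPM). In the libraries labelled HPB-ALL, H1-2 was lowest in NTC shRNA library 3 (3.36 CPM) and H2BC21 was lowest in QKI shRNA library 4 (5.51 CPM). In the untreated lines, H1-2 was lowest in ALL-SIL library 3 (1.33 CPM), and the histone sum of HPB-ALL was lowest in 1 library at 77.7 CPM.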

How the results depend on the processing

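Of 57 named values refitted 1393 times, 44 kept their call and direction in every refit. In Jurkat the direction of 5 abundant members turned when QKI siRNA replicate 2 alone was left out, which leaves its number without a partner. Without both libraries of number 2, H1-4, H2AC11, H2AC13 and H3C2 stayed positive and H1-2 was at -0.0017. Leaving out libraries, their log2 fold changes ran from -0.35 to 0.53 for H1-2, from -0.089 to 0.40 for H1-4, from -0.073 to 0.61 for H2AC11, from -0.24 to 0.70 for H2AC13 and from -0.27 to 0.46 for H3C2. H2AC25 in the labelled HPB-ALL libraries ran from -0.033 to 0.051, with 0.012 without a filter on low counts and 0.0016 with the replicate block. The cause was not tested for any of these.

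With the replicate block the Jurkat table gave 0 called members, the block without number 3 gave 8, and the labelled HPB-ALL table gave 8. In the lines the block fit dropped the LOUCY libraries without a number and tested 56 members. The F test called 55 of them, beside 20936 of 21467 genes, so the share of members is near that of all genes. LOUCY had 9 members higher, beside 6793 of the 21467 genes. The block and the dropped libraries cannot be told apart. Members lower in DND-41 numbered 7 with limma-voom and 2 to 4 with a library left out, the 2 without DND-41 replicate 4. Members lower in HPB-ALL numbered 4 to 8 with a library left out, the 8 without LOUCY replicate 4 or ALL-SIL replicate 3. The shares of all genes in these refits of DND-41 and HPB-ALL are not given here. At 5 CPM, 15 members were present in polyadenylated RNA. With plain library totals the mean histone sum was 147 CPM in DND-41, 94.6 CPM in HPB-ALL and 210.1 CPM in KARPAS-45. Without the 3 most abundant members, which moves KARPAS-45 below DND-41 and TALL-1, it was 98.8 CPM in DND-41, 62.7 CPM in HPB-ALL, 85.8 CPM in KARPAS-45, 86.1 CPM in TALL-1, 34.3 CPM with QKI shRNA and 27.2 CPM with NTC shRNA. Depth limits the members near 0 in polyadenylated RNA, where a library's floor is 3 counts.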
